A study of Lates calcarifer with 24 samples.

Results

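Feed B, a commercial pelleted grow-out feed, was set against frozen baitfish (Feed A, the control diet) in the liver of juvenile Asian seabass (*Lates calcarifer*). The 8 arrays compared, of 24 in the series, are those whose titles place them in Group B (4 arrays, Feed B) and in Group A (4 arrays, baitfish). The labels number 4 replicates a group and name no fish, and each array is taken here to hold the liver RNA of 1 fish. This could not be checked, since the study's methods name more fish per feed and do not say whether RNA was pooled. All fish were siblings from 1 cross of brooders selected for growth, took their feed for 61 days from 107 days post-hatch (dph) and were sampled at 168 dph. Per day, Group B received a smaller share of its body weight as feed than Group A, so that dry pellets and wet fish were matched by energy and not by mass. Pellets were changed to a larger size late in the trial. The other 16 arrays belong to Groups C to F, fed 4 other pelleted feeds. Group F had a smaller daily ration than the other pellet groups and Group E kept 1 pellet size throughout, and the study left both out. Which feed the labels C, D, E and F stand for could not be checked in the files, and it is open whether the pair C and D was exchanged with the pair E and F, so values of these groups below are those of the arrays so labelled. The labels do not say which canvas enclosure each fish came from, so p-values below measure the spread between these arrays, and the part of shared enclosures was not tested.

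Asian seabass is a carnivore that takes long-chain polyunsaturated fatty acids ready-made from its prey. The liver is where dietary fat is remodelled, by desaturases that add double bonds and elongases that add carbon pairs, and where most blood plasma proteins are made. Among these are acute-phase and pathogen-binding proteins of innate immunity, so that a liver RNA profile shows both metabolism and defence.

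The array's probes are known by design number, and gene symbols were available for 15 of the 60080 probes. Of the hepatocyte genes among them, serpina1 and lbp were well above background on all 8 arrays. Markers of blood, pancreas or other cell types could not be named, so the mix of cells was not checked, and in whole tissue fewer cells of a type and less RNA per cell cannot be told apart. Between 20.4% and 30.7% of the spots were well above background on the arrays of Group B, against 21.6% to 29.8% in Group A. The groups were matched over the 3 slides, since replicates 1 and 2 of both lay on slide 1, replicate 3 of both on slide 2 and replicate 4 of both on slide 3, each B array beside its A array. In every pair the A array lay in the column before the B array. Array position within a slide therefore cannot be told apart from feed. Slide 1 was dimmer, with a 75th percentile of the signal between 22.2 and 30.8 against 44.7 to 54.2 on the other slides. Values below are log2 of the quantile-normalized signal. Repeated spots of 1 probe on 1 array had a median SD of 0.0519 to 0.0602 log2 over the 8 arrays. Between arrays of a group, the median SD was 0.36 log2 in Group B and 0.50 log2 in Group A over the 8354 probes measured on all 8 arrays, larger in both groups than the spread between spots.

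In the fit of Groups A to D, 254 probes differed in liver signal between Group B and Group A, 0.423% of those tested. These differentially expressed transcripts (DETs) have an adjusted p under 0.05 in limma (Benjamini-Hochberg over all probes) and at least a 2-fold difference. The count depended on the setting. It was 17 with the 8 arrays of Groups B and A alone and 21 when Groups E and F replaced C and D. Scaling each array to its 75th percentile over all probes gave 36. With slide as a block it was 310, and with dim probes left out 563. Of the 254 DETs, 194 were higher in Group B (0.323% of all probes) and 60 were lower (0.0999%). Among the 8354 probes well above background on all 8 arrays, 109 were DETs (1.3%), 86 of them higher and 23 lower in Group B. The 86 that rose had a median of 2.64-fold, with 37 of them under 2.5-fold and 4 at 4-fold or more. The 23 that fell had a median of 2.94-fold, and 8 of them fell 4-fold or more. The volcano plot shows these measured DETs beside those that were dim in a group.

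**Figure D1:**
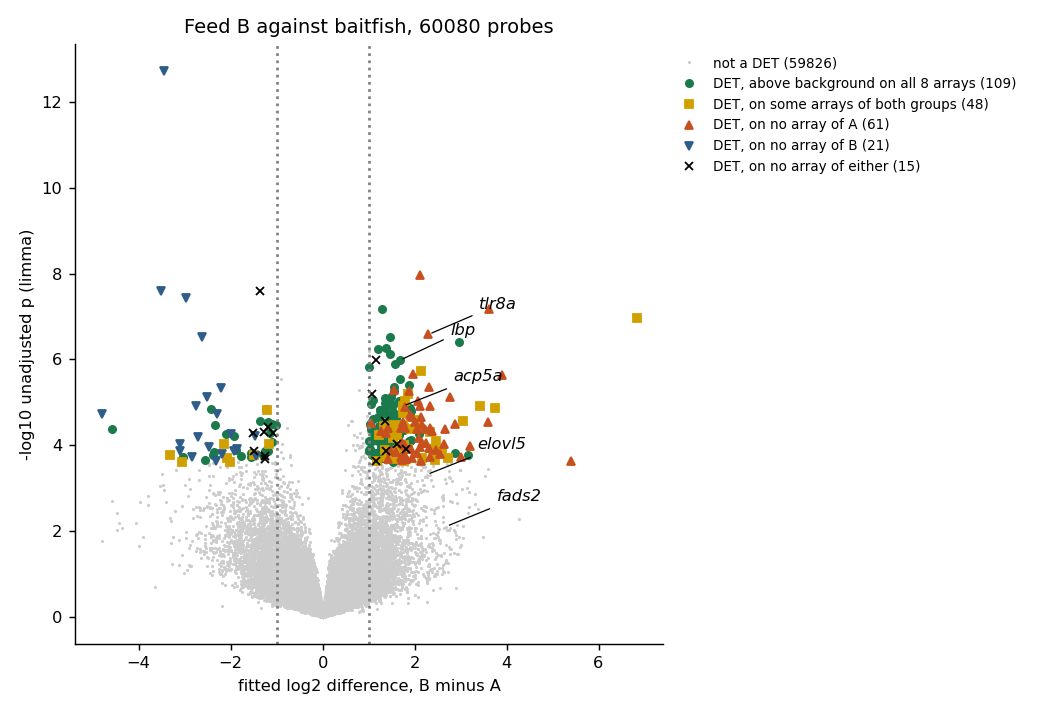
Each point is a probe, with the fitted log2 difference (Group B minus Group A) on the horizontal axis and -log10 of the unadjusted limma p on the vertical axis. Dotted lines mark 2-fold. DETs are marked by where they were well above background, and the right arm holds 194 DETs against 60 on the left.

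In many of the remaining DETs no array of 1 group was well above background, and at most a lower limit of the fold could be set. In 61 of the 194 that rose no array of Group A was well above background, and in 18 of these all 4 arrays of Group B were. In 21 of the 60 that fell no array of Group B was well above background, and in 3 of these all 4 arrays of Group A were. A limit above 1 could be set for 35 of the 61, with a median of at least 1.84-fold and a highest value of at least 9.87-fold. Among the 21, it could be set for 19, with a median of at least 1.90-fold and a highest of at least 6.75-fold. The limit reached 2-fold in 13 of the 61 and in 9 of the 21, so for the others the 2-fold rule was met by the fitted difference only. Here the brighter group's mean was set against the lowest signal that counted as above background on each dim array, or the dim probe's own value where that was higher. That mean is over all 4 arrays. Where some of them were not well above background it includes unmeasured signals, and the limit is not a firm one. A further 15 DETs, 7 up and 8 down, were dim on all 8 arrays and have no usable fold.

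The number of DETs changed with the arrays in the fit and with the processing. Groups C and D were in the same fit, and the 2 groups borrowed spread from them. The count fell when Groups C and D were replaced or left out. The parts of shared spread, number of arrays and joint normalization in this were not told apart. When Groups E and F replaced Groups C and D in the fit there were 21 DETs, 15 higher and 6 lower in Group B. With the 8 arrays of Groups B and A alone there were 17, and the methods' t-test on them left 7 with equal and 3 with unequal variances. Leaving out 1 array gave 86 without B replicate 1, 105 without B replicate 2, 142 without B replicate 4 and 135 without A replicate 3, and between 192 and 301 without each of the other 4 arrays. At an unadjusted p under 0.05, limma gave 4714 significantly expressed transcripts (SETs), 7.85% of all probes, with 2527 higher and 2187 lower in Group B. Scaling each array to its 75th percentile over all probes gave 36 DETs, 23 higher and 13 lower, and moved the median difference of all probes to -0.17 log2. Background correction by normexp gave 81 higher and 48 lower. A filter that keeps the 10586 probes above background on all 4 arrays of either group called 563 (5.32%), 387 higher and 176 lower; since a probe bright in 1 group alone enters it through that group, this share is no support for the others.

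The DETs were also described slide by slide. In all 254 the arrays of the groups did not overlap, so all 4 pairs of neighbouring arrays necessarily had the fitted direction. This is no evidence beyond the calls themselves. The medians of the pairs are given as a description, over the DETs measured on all 8 arrays. For the 86 of these that rose, the median difference within pairs 1 to 4 was 1.49, 1.69, 1.04 and 1.42 log2. For the 23 that fell it was -1.42, -1.43, -2.18 and -1.51 log2. The pair on slide 2 thus had the smallest median rise and the largest median fall. With slide as a block in the same fit there were 310 DETs (0.516% of probes), 247 higher and 63 lower, and 214 of the 254 were among them.

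Over all probes, every array of Group B lay above every array of Group A in 1109 (1.85% of probes), and every B array lay below in 795 (1.32%). Of the 15 probes with a symbol, 9 had all B arrays above all A arrays and 0 had all below. Since the study picked 13 of the 15 genes from these same arrays, neither that count nor the calls among them are independent evidence. The other 2, fads2 and elovl5, were added as genes that respond to dietary fatty acids. On its liver arrays the study reports both as significantly higher in Groups B to D than in Group A, and lists them as differentially expressed. It also measured both by qPCR. They are therefore not independent evidence either, and in the fit used here neither was a DET for Group B. DETs among the 15 were lbp, tlr8a and acp5a, all higher in Group B, and the plot of the 15 probes shows each array.

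**Figure D2:**
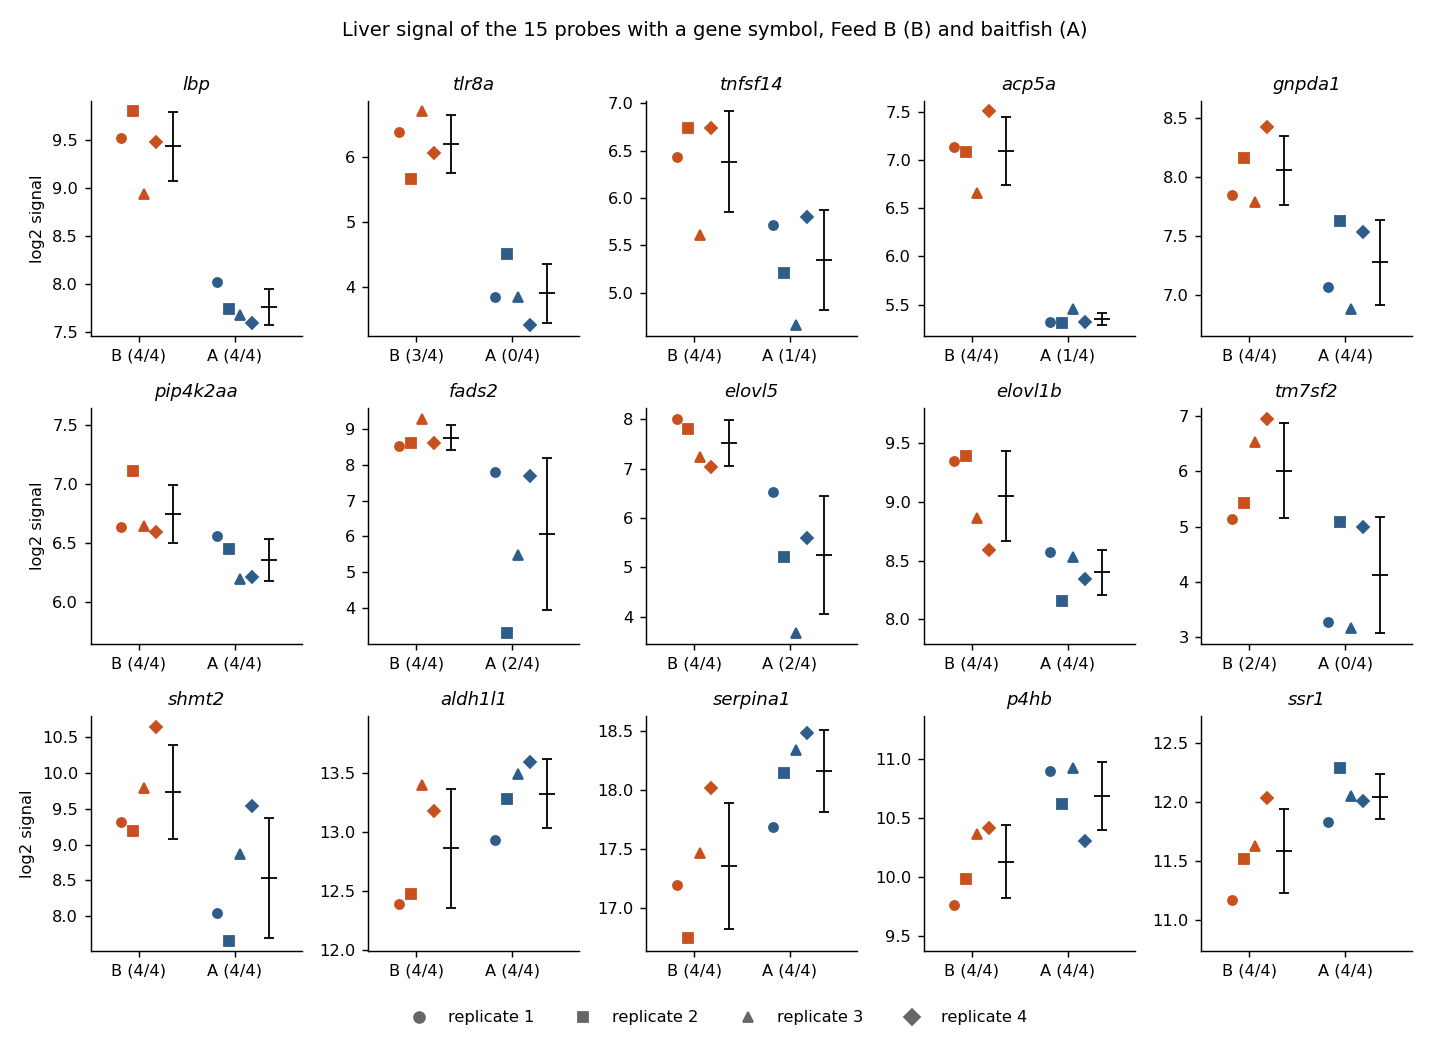
Each panel shows 1 probe with its log2 signal on a scale of its own, for the 4 arrays of Group B (left) and of Group A (right); bars are the mean and SD (n = 4), and the label gives how many of 4 arrays were well above background. The groups lie farthest apart relative to their spread in lbp, tlr8a and acp5a, and the 2 lowest fads2 signals are baitfish arrays.

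Of the 3 innate immune genes, lbp and tlr8a rose in the livers of Feed B fish and tnfsf14 was not called. The lipopolysaccharide-binding protein gene lbp encodes a plasma protein of the liver that binds the outer membrane of Gram-negative bacteria. Its log2 signal was 9.53, 9.80, 8.94 and 9.48 in Group B replicates 1 to 4, against 8.03, 7.74, 7.68 and 7.60 in Group A. Every Feed B fish was above every baitfish-fed fish by a clear gap, with all 8 arrays well above background. The rise was 3.20-fold (1.68 ± 0.20 log2, SE; adjusted p 0.00351 in limma), and the pairs gave between 1.26 and 2.06 log2. It kept its call without each of the 8 arrays in turn, with slide as a block (adjusted p 0.0110), and under normexp (1.45 log2, adjusted p 0.00326). The call was lost when Groups E and F replaced C and D (adjusted p 0.208 in limma) and on the 8 arrays alone (0.0788).

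Toll-like receptor 8 (tlr8a) is, in mammals, an endosomal sensor of single-stranded RNA found in myeloid cells. Its log2 signal was 6.39, 5.66, 6.70 and 6.06 in Group B, where 3 of 4 arrays were well above background. In Group A it was 3.84, 4.51, 3.84 and 3.40, with 0 of 4 above background. The groups did not overlap. tlr8a had no measured level in baitfish-fed fish, and the lower limit set for its rise was 1.82-fold (adjusted p 0.00167 in limma). The mean of Group B behind that limit takes in the array that was not well above background. Under normexp the difference was 0.70 log2 (adjusted p 0.0138 in limma), below that limit and below 2-fold. Its size thus depends on the background correction and the offset added with it, which were not told apart. The call was also lost with the deposited log2 values, at 0.77 log2, when Groups E and F replaced C and D (adjusted p 0.129 in limma) and on the 8 arrays alone (0.0991). tnfsf14, a ligand of the tumour necrosis factor family that acts on lymphocytes and stromal cells, averaged 6.38 ± 0.53 log2 in Group B and 5.34 ± 0.53 log2 in Group A (SD, n = 4 each) and was no DET (adjusted p 0.205 in limma). Its lowest B array, at 5.61, lay under the highest A array, at 5.79, and 4 arrays of B but 1 of A were well above background. Within pairs it was higher in Group B by 0.72 to 1.53 log2, and the adjusted p was 0.0652 with slide as a block.

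The primer pairs that the study designed for these genes are shown because they mark the transcripts that the probes of the calls stand for; the array's probe sequences were not used here. They run 5′ to 3′, and capitals mark the 5 bases at the 3′ end, from which the polymerase extends.
lbp forward: ccagtgttttccttcCAGCC
lbp reverse: tggggtctgggtaccATTTC
tlr8a forward: gtctggaggagagggATTGG
tlr8a reverse: accccagtcttaacgTAGCC
acp5a forward: ttcagtggccaagctTCAAC
acp5a reverse: agtgcgatagagagaGGTGC
All are 20 bases long and hold 10 to 12 G or C bases.

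The acid phosphatase gene acp5a rose as well. Its product, tartrate-resistant acid phosphatase, is a lysosomal enzyme that in mammals marks osteoclasts and activated macrophages. The log2 signal was 7.13, 7.08, 6.65 and 7.51 in Group B, against 5.32, 5.31, 5.45 and 5.32 in Group A. The baitfish-fed fish lay within a narrow band, of which only 1 array was well above background, and all Feed B arrays were above it. The difference was 1.74 ± 0.26 log2 (SE; adjusted p 0.0136 in limma), and it kept its call without each of the 8 arrays in turn and with slide as a block (adjusted p 0.0192). It was 0.82 log2 under normexp, and 0.86 log2 with the deposited values, short of 2-fold in both. The adjusted p was 0.108 when Groups E and F replaced C and D, 0.0573 on the 8 arrays alone and 0.0523 with arrays scaled by the 75th percentile of all probes.

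The amino-sugar and phosphoinositide enzymes were not DETs, although their arrays did not overlap. gnpda1, which turns glucosamine-6-phosphate into fructose-6-phosphate, was 7.85, 8.17, 7.79 and 8.42 in Group B and 7.07, 7.63, 6.88 and 7.54 in Group A, a difference of 0.78 ± 0.20 log2 (SE; adjusted p 0.151 in limma). The lipid kinase gene pip4k2aa differed by 0.39 ± 0.16 log2 (SE; adjusted p 0.510). In pip4k2aa 1 array stood above the rest, since replicate 2 of Group B was at 7.12 and the other 3 at 6.59 to 6.65, against 6.20 to 6.56 in Group A.

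Genes of fatty acid and sterol synthesis were all higher on average in Group B, and 0 of the 4 were DETs. Their median difference was 2.07 log2, or 1.45 log2 with tm7sf2, which was dim in Group A, at its lower limit. Over all probes it was -0.0045 log2. In fads2 and elovl5 only 2 of 4 arrays of Group A were well above background, so these medians include unmeasured signals. Under normexp the differences were 1.51 log2 for fads2, 1.08 log2 for elovl5, 0.57 log2 for elovl1b and 0.44 log2 for tm7sf2. The study picked elovl1b and tm7sf2 from these same arrays, so the medians are no test of the set. The delta-6 desaturase gene fads2 catalyses the first step from dietary C-18 fatty acids to long-chain ones. Its log2 signal was 8.51, 8.60, 9.28 and 8.61 in Group B, against 7.81, 3.31, 5.47 and 7.69 in Group A. Feed B fish were alike and baitfish-fed fish were not. The SD was 0.35 in Group B and 2.13 in Group A, whose replicates 2 and 3 were not well above background. The difference was 2.68 ± 0.86 log2 (SE; adjusted p 0.303 in limma, exact permutation p 0.0286, the smallest that 70 splits allow), and the pairs ran from 0.71 to 5.29 log2. That permutation p is not adjusted, and all 9 symbol probes whose groups did not overlap have it, so it sets fads2 apart from none of them. Without A replicate 2, the lowest array, the difference was 1.76 log2, and under normexp 1.51 log2.

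elovl5, an elongase of polyunsaturated C-18 and C-20 acids that works beside fads2, came nearest to a call. Its log2 signal was 8.01, 7.80, 7.23 and 7.03 in Group B, against 6.53, 5.22, 3.67 and 5.60 in Group A, with 4 arrays of B and 2 of A well above background. Every Feed B array was higher, by 1.43 to 3.56 log2 within pairs, and the difference was 2.26 ± 0.49 log2 (SE; adjusted p 0.0717 in limma). It passed as a DET without A replicate 1 (adjusted p 0.0236), was at 0.0126 with dim probes left out, a filter it passed through Group B alone, and at 0.0586 with slide as a block. On the 8 arrays alone the adjusted p was 0.421, and under normexp the difference was 1.08 log2 (adjusted p 0.0724). For fads2 and elovl5, which stand for the conversion of C-18 to longer fatty acids, the primer pairs are given in the same form.
fads2 forward: atcgccatttccagcATCAC
fads2 reverse: atcccgtactccactGGTTG
elovl5 forward: gctcactgtagcgtgTTAGC
elovl5 reverse: ccatgagtagcagtgTGTGC

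elovl1b, an elongase of saturated and monounsaturated very long chain acids, was 9.34, 9.38, 8.87 and 8.59 in Group B, against 8.57, 8.16, 8.53 and 8.35 in Group A. The gap between the lowest B and the highest A array was narrow, and the difference was 0.64 ± 0.16 log2 (SE; adjusted p 0.125 in limma). For tm7sf2, a sterol reductase of cholesterol synthesis, the signal was 5.14, 5.43, 6.53 and 6.95 in Group B, with 2 arrays well above background. It was 3.28, 5.08, 3.16 and 4.997 in Group A, with 0. The 2 measured B arrays were the higher ones. The lower limit set for the rise of its mean was 1.51-fold (adjusted p 0.318 in limma). The mean of Group B behind it takes in the arrays that were not well above background, so the limit is not a firm one. Under normexp the difference was 0.44 log2, below that limit.

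**Figure D3:**
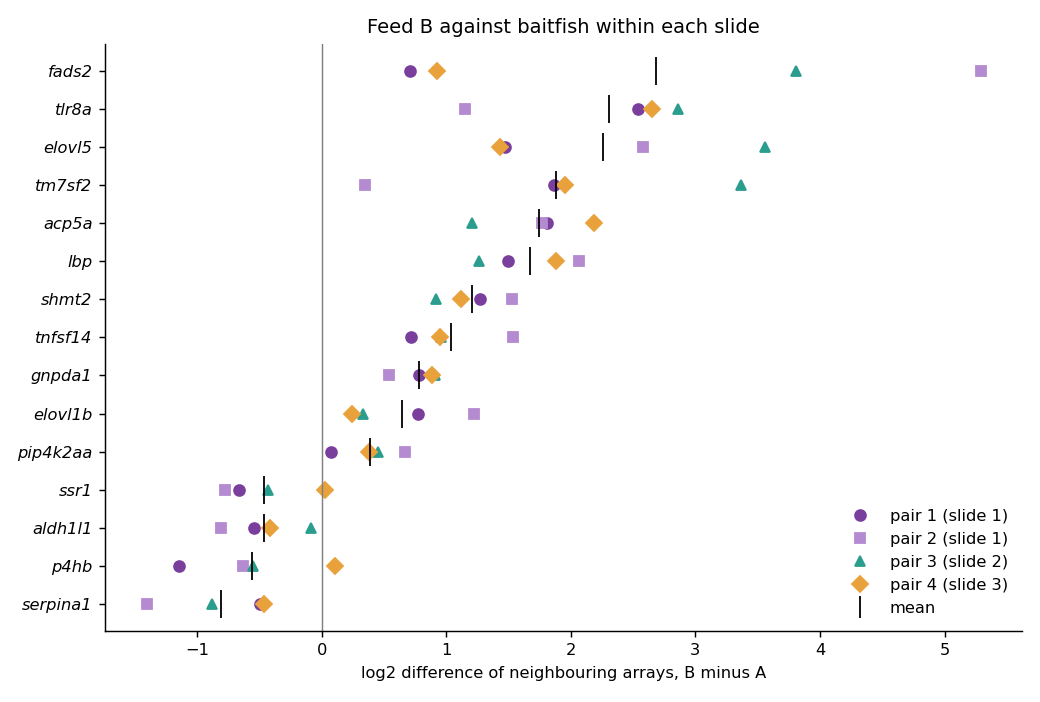
For each of the 15 probes, points give the log2 difference of a Group B array from the Group A array beside it on the same slide, and the black bar is the mean of the 4 pairs. All 4 pairs are above 0 for 11 probes, and the pairs lie between 0.54 and 0.91 log2 for gnpda1 but between 0.71 and 5.29 log2 for fads2.

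Of the folate and one-carbon enzymes, shmt2 was higher and aldh1l1 lower on average in Group B, and neither was a DET. shmt2 is the mitochondrial enzyme that takes a carbon unit from serine to make glycine. Its log2 signal was 9.32, 9.19, 9.79 and 10.65 in Group B, against 8.05, 7.66, 8.87 and 9.53 in Group A. The groups overlapped across slides, but within each slide the Feed B arrays were higher, with pairs of 1.27, 1.53, 0.92 and 1.12 log2. Accordingly the adjusted p was 0.375 in limma by group alone and 0.0225 with slide as a block, for the same difference of 1.21 log2. aldh1l1, which oxidises 10-formyltetrahydrofolate, was 12.86 ± 0.51 log2 in Group B and 13.33 ± 0.29 log2 in Group A (SD, n = 4 each; adjusted p 0.826), and the groups overlapped.

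The 3 genes of the secretory pathway had lower means in Group B, 0 of them called and all with overlapping groups. serpina1, the protease inhibitor alpha-1-antitrypsin that hepatocytes export in bulk, was 17.19, 16.75, 17.46 and 18.02 in Group B, against 17.68, 18.15, 18.34 and 18.48 in Group A. Only replicate 4 of Group B reached into the range of the baitfish-fed fish, and the difference was -0.81 ± 0.23 log2 (SE; adjusted p 0.216 in limma). The protein disulfide isomerase gene p4hb averaged 10.13 ± 0.31 log2 in Group B and 10.69 ± 0.29 log2 in Group A (SD, n = 4 each; adjusted p 0.447). ssr1, a subunit of the translocon-associated complex, averaged 11.59 ± 0.35 log2 in Group B and 12.05 ± 0.19 log2 in Group A (SD, n = 4 each; adjusted p 0.616). In both, the pair on slide 3 ran against the other 3, at 0.11 log2 for p4hb and 0.03 log2 for ssr1.

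Larger changes than in any of these genes were found at probes known only by design number. By rule the pair with the largest fall and the pair with the largest rise among DETs measured on all 8 arrays are given. CUST_14067_PI428621111 was 13.63, 10.67, 11.01 and 12.60 log2 in Group B, against 16.18, 16.04, 16.44 and 17.61 log2 in Group A, a fall of 24.1-fold (adjusted p 0.0208 in limma). All baitfish arrays of this bright probe were above all Feed B arrays. CUST_1574_PI428621111 was 11.09, 9.89, 9.55 and 10.44 log2 in Group B and 13.18, 13.62, 13.17 and 13.11 log2 in Group A, where it hardly varied, a fall of 8.17-fold (adjusted p 0.0437).

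CUST_12880_PI428621111 was 11.25, 10.77, 12.03 and 10.93 log2 in Group B and 8.00, 8.05, 8.35 and 8.68 log2 in Group A, a rise of 7.86-fold (adjusted p 0.00196 in limma). With all 24 arrays normalized together, its mean in Group B, 11.33 log2, was the lowest of the pellet groups. It was 13.38 log2 in C, 13.20 log2 in D, 11.52 log2 in E and 13.20 log2 in F. CUST_21085_PI428621111 was 16.14, 15.43, 16.66 and 15.92 log2 in Group B and 14.05, 10.93, 12.15 and 14.37 log2 in Group A, a rise of 8.96-fold (adjusted p 0.0418). As with fads2, replicates 2 and 3 of Group A were its lowest arrays. Without A replicate 2 the difference was 2.51 log2, against 3.16 log2 with all arrays, and with slide as a block the call was lost (adjusted p 0.0522). Under limma with 1 array left out, CUST_12880_PI428621111 kept its call without each of the 8. CUST_1574_PI428621111 lost it without each of them (adjusted p up to 0.134), CUST_21085_PI428621111 without each B array and A replicates 2 and 3 (up to 0.121), and CUST_14067_PI428621111 without B replicates 2 and 3 and A replicates 3 and 4 (up to 0.0682). When Groups E and F replaced Groups C and D, CUST_12880_PI428621111 alone of the 4 kept its call (adjusted p 0.0192), and with the 8 arrays alone 0 of the 4 did. With all 24 arrays in the limma fit, CUST_14067_PI428621111 (adjusted p 0.108) and CUST_1574_PI428621111 (0.115) lost their call. The 2 probes that rose kept theirs.

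**Figure D4:**
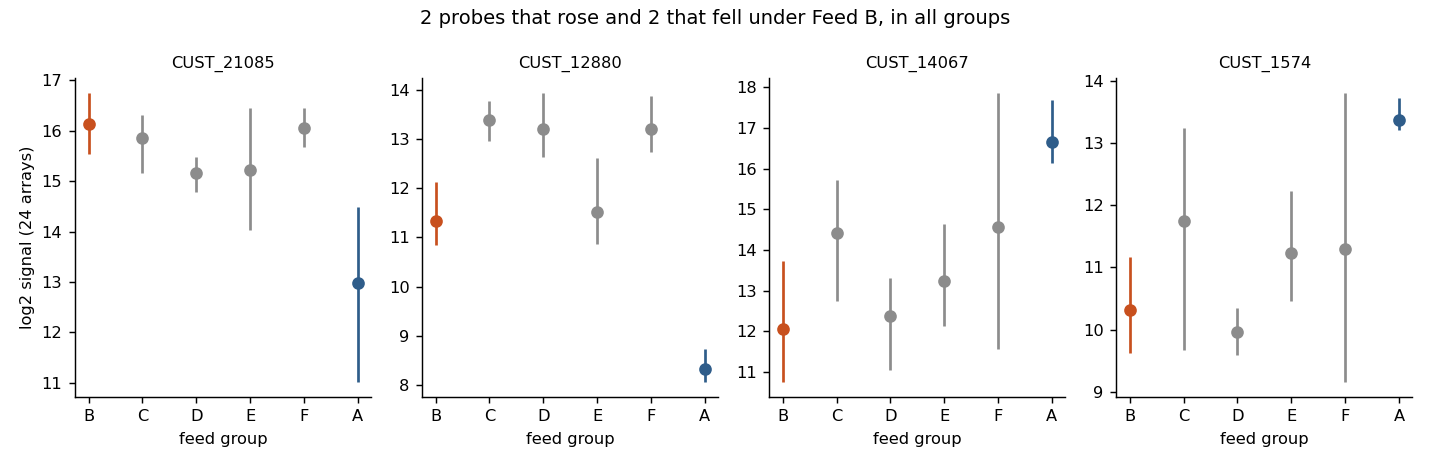
For each of the 4 probes, points are the mean log2 signal and lines the range of 4 arrays in every feed group, with all 24 arrays normalized together; Group B is on the left, the other pellet groups are in grey and Group A is on the right. Each panel has its own scale. In all 4 the arrays of Group B lie apart from those of Group A, as they did in all 254 DETs, from which these probes were picked.

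The other pellet groups share the baitfish arrays as their control, so that their differences from Group A are not independent of those of Group B and are given side by side only. With all 24 arrays normalized together, the 86 measured DETs that rose in Group B had a median difference from Group A of 1.41 log2 in Group B. It was 1.12 log2 in Group C, 1.96 log2 in D, 1.15 log2 in E and 1.07 log2 in F. For the 23 measured DETs that fell, the median was -1.57 log2 in Group B, against -1.15 log2 in Group C, -1.67 log2 in D, -0.98 log2 in E and -1.04 log2 in F. With the dim DETs included, the median of those that fell was -2.00 log2 in Group B and -1.81 log2 in Group D, the other order. The DETs were chosen for their size in Group B, which raises its own median.

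**Figure D5:**
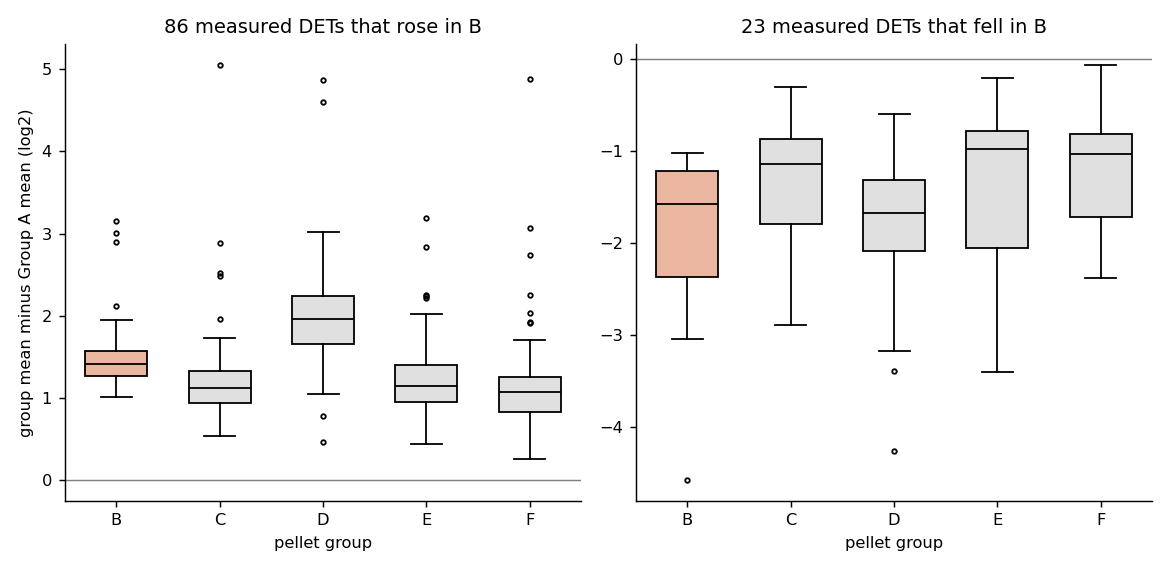
Boxes give the median and quartiles, over the 86 measured DETs that rose (left) and the 23 that fell (right) in Group B, of each pellet group's mean minus the Group A mean on the log2 scale; whiskers reach 1.5 times the box height and circles are probes beyond them. The medians of the risen DETs run from 1.07 log2 in Group F to 1.96 log2 in Group D, with 1.41 log2 in Group B.

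Feed B was also set against the other pellets directly, a comparison of means that leaves out the mean of Group A. The baitfish arrays were still in the fit. They were part of the joint normalization and of the shared spread behind each SE and p-value, so these are not free of baitfish arrays. Unlike Groups B and A, the pellet groups were not matched over slides. Replicates 1 and 2 of Group B lay on slide 1, the dimmer one, but only replicate 1 of each other pellet group. Neither this comparison nor the group means below are adjusted for slide, except where a slide block is named. Against the mean of Groups C to F, 4 probes were DETs (0.00666% of 60080), all higher in Group B. An unadjusted p under 0.05 in limma was found for 2630 of the 60080, 2074 of them higher and 556 lower in Group B. That share is below the 0.05 that such a threshold passes when nothing differs. Neither this count nor its direction is therefore read as a result. Of the 15 probes with a symbol 0 were DETs, with an adjusted p of 0.9998 for each. The difference of Group B from the mean of the others was 0.14 ± 0.28 log2 for lbp, 0.55 ± 0.31 log2 for tlr8a, 0.10 ± 0.26 log2 for acp5a and 0.42 ± 0.39 log2 for elovl5 (SE). fads2 was lower in Group B by this measure, at -0.95 ± 0.63 log2, and tm7sf2 at -1.11 ± 0.47 log2, with the smallest unadjusted p of the 15, 0.0294.

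Among the pellet groups, the mean of Group B came after that of Group D in each of lbp, acp5a and tlr8a, which were the called genes. For lbp the mean was 9.50 ± 0.36 log2 in Group B, against 9.08 ± 0.18 log2 in Group C, 10.16 ± 0.36 log2 in D, 9.31 ± 0.77 log2 in E, 8.89 ± 0.83 log2 in F and 7.81 ± 0.19 log2 in A (SD, n = 4 each). For acp5a it was 7.14 ± 0.35 log2 in Group B, against 6.88 ± 0.63 log2 in C, 8.10 ± 0.21 log2 in D, 6.56 ± 0.68 log2 in E, 6.601 ± 0.54 log2 in F and 5.38 ± 0.07 log2 in A. The SD of Group B overlapped that of every other pellet group in lbp, and those of Groups C, E and F but not D in acp5a. tlr8a averaged 6.24 ± 0.45 log2 in Group B, with 3 of 4 arrays well above background, against 5.79 ± 0.16 log2 in C (4 of 4), 6.36 ± 0.22 log2 in D (4 of 4), 5.60 ± 0.88 log2 in E (3 of 4), 5.02 ± 0.84 log2 in F (1 of 4) and 3.93 ± 0.46 log2 in A (0 of 4). fads2 showed another order, with Group B at 8.81 ± 0.36 log2 having the lowest mean and the smallest SD of the pellet groups, against 9.37 ± 0.78 log2 in C, 10.48 ± 1.09 log2 in D, 9.696 ± 1.04 log2 in E and 9.49 ± 0.75 log2 in F. None of these 4 genes passed the test of Group B against the mean of the other pellets.

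Of the 4 probes, named after their values were seen, 3 were dim: CUST_13221_PI428621111 and CUST_27262_PI428621111 did not pass background on any array of the series, and CUST_18544_PI428621111 on 1, so no fold is given. The fourth, CUST_13087_PI428621111, was well above background on all 24 arrays and was 1.95 ± 0.28 log2 higher in Group B than in the mean of the others (SE; adjusted p 0.0219 in limma). Its mean was 13.26 log2 in Group B, against 10.97 log2 in Group C, 7.73 log2 in D, 13.54 log2 in E, 12.999 log2 in F and 14.01 log2 in A. Group B thus lay beside Groups E, F and A, and Groups C and D lay below all of these. The 4 calls were sensitive to single settings, with 1 left when slide was a block and 0 when arrays were scaled by the 75th percentile of their consistently bright probes, and with 1 to 13 when 1 array was left out. Against Groups C, D, E and F singly, Group B had 1, 5, 1 and 0 DETs.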

How the data were processed

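Liver RNA was labelled with Cy3 and hybridised to one-colour Agilent custom arrays, 8 arrays to a slide. The authors scanned them and deposited, per spot, a background-subtracted intensity, median signals and flags (other values with no unit). The deposited series table holds log2 values that the authors normalized, with Partek named in their processing notes, and served as an alternative only. Here, control and outlier spots were dropped, repeat spots were averaged, and the 16 arrays labelled A to D were brought to common quantiles and put on the log2 scale. A probe is well above background on an array when over 50% of its spots are. Each probe was fitted by feed group in limma 3.58.1 (R 4.3.3) and adjusted over 60080 probes. Group B against the mean of Groups C to F used all 24 arrays. The factors of the authors' ANOVA are not given in the sources used here.

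Symbols were taken from the study's primer and qPCR tables, which pair 15 probes with genes. By rule these were described, with the 2 DETs that rose and the 2 that fell most among those measured on all 8 arrays. The members and lists were chosen with earlier results of these data known. The fit was tested on simulated data with the same spread in every group, independent probes and no slide effect. That test does not bear on calls under unequal spread or slide differences. Alternatives were other scalings, normexp with an offset of 50, the deposited log2 values, outlier spots kept, other sets of arrays, leaving out dim probes, blocks for slide or replicate number, other variances, the methods' t-test, other fold limits and leaving out 1 array. Leaving out 1 array in the comparison with Groups C to F, replacing Groups C and D by E and F, and counting non-overlapping probes under other scalings, were added after seeing the data. Normexp was run on median signals. No pair of arrays held identical values.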

Additional observations from a re-analysis of the deposited data

Results flagged for a closer look

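In 5 of 50 sets of 4 arrays, Dixon's ratio set 1 array apart from its group, and chance does so in about 1 in 20 sets. In Group B these were replicate 2 for pip4k2aa (7.12 log2, with the others at 6.59 to 6.65) and replicate 3 for fads2 (9.28 log2, with the others at 8.51 to 8.61). In Group A these were replicate 3 for acp5a (5.45 log2, with the others at 5.31 to 5.32), replicate 2 for CUST_1574_PI428621111 (13.62 log2, with the others at 13.11 to 13.18) and replicate 4 for CUST_18544_PI428621111 (3.13 log2, with the others at 2.89 to 2.92), the last dim on all 4. Group B differed from the mean of Groups C to F in 4 probes by limma, of which 1 was measured on all arrays.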

How the results depend on the processing

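All 378 recomputed differences of the 19 named probes kept their direction. Much of this was set in advance. Slide as a block and dim probes left out returned the same difference. Leaving out 1 array could hardly turn a probe whose groups did not overlap. For the 7 called probes the call was kept in 91 of 139 and lost in 48. The 12 others were called in 6 of 239, for elovl5, tnfsf14 and shmt2. The 254 DETs became 143 when arrays were scaled by the 75th percentile of their consistently bright probes (well above background on every array), 36 with that percentile over all probes, 129 with normexp, 131 with the deposited log2 values, 146 with all 24 arrays, 21 when Groups E and F replaced C and D, 17 with the 8 arrays, 563 with dim probes left out and 149 without moderated variances. The t-test that the methods use for SETs, held to the limits of a DET, gave 7 and 3 (equal and unequal variances). Leaving out 1 array gave 86 to 301 DETs and 3962 to 5538 SETs. SETs were 2235 with dim probes left out, and 2776 and 2193 with the t-tests. The causes were not tested; the filter tests fewer probes and the 8-array fit has fewer arrays.

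Replicate numbers do not come from a shared animal, and the deviations of same-numbered arrays correlated at 0.15, 0.09, 0.20 and 0.32 over all probes for replicates 1 to 4, where each B array correlated best with the A array of its own number. With the replicate block there were 306 DETs in the 16 arrays and 1 in the 8 arrays, with 5956 and 4112 SETs; tnfsf14 and shmt2 were called in the 16 arrays (adjusted p 0.0276 and 0.0291). For Group B against the mean of Groups C to F, 4 DETs became 0 with scaling by bright probes (which moved the median of all probes by 0.22 log2), 1 with dim probes left out, 1 with slide as a block, 2 without Group F, 1 against Group C, 1 against E and 0 against F, and 1 to 13 with 1 array left out. Probes not above background have no measured fold.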

Other observations

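Baitfish-fed fish differed more from each other than Feed B fish did. Over probes well above background on all 8 arrays, the SD between fish was larger in Group A than in Group B in 5677 of 8352 (68.0%), with medians of 0.36 log2 in Group B and 0.50 log2 in Group A. Among these probes, CUST_21085_PI428621111 had an SD of 0.51 log2 in Group B and 1.63 log2 in Group A. fads2 lay outside this set, since only 2 of the 4 arrays of Group A were well above background. Its SD was 0.35 log2 in Group B and 2.13 log2 in Group A, and the latter includes unmeasured signals. The reverse held for lbp, with 0.36 log2 in Group B and 0.19 log2 in Group A. For acp5a the SD was 0.35 log2 in Group B and 0.07 log2 in Group A, where only 1 array was well above background. Probes share arrays, so these counts are a description of 8 fish with no test.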
